A study of Mus musculus with 2 samples.

Results

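The miRNAs described here are those of the imprinted Dlk1-Dio3 domain on mouse chromosome 12, taken by name from a list of 32 mature miRNAs. Of these, 31 were on the array among 1881 mouse miRNAs, and mmu-miR-299a-5p had no spot there. The files name each with the prefix mmu (mmu-miR-494-3p, mmu-miR-370-3p, mmu-miR-376b-3p and so on), which is left out below. The levels were measured in LSKs (lineage-negative, Sca-1-positive, c-Kit-positive cells, the bone marrow (BM) fraction that holds hematopoietic stem and early progenitor cells) of C57BL/6 mice carrying a tet-off BCR/ABL (BA) transgene. In these Scl/tTA-BA mice the tTA activator is under control of Scl regulatory sequence, and doxycycline keeps the transgene off. Doxycycline was given at 20 mg/L in drinking water to hold mice of both groups in the off state beforehand. The group 3W_LSK (week-3) was sorted at week 3 after doxycycline was taken away, and the group 0W_LSK (week-0) at week 0. Each group was 1 array with RNA of 3 pooled mice, so no test between the groups was possible and no error below covers differences between mice. Both groups carried the transgene and no transgene-free mice were taken off doxycycline alongside, so that BA, the withdrawal itself, the passage of time and differences between pools cannot be told apart.

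In the Dlk1-Dio3 domain, the protein-coding genes Dlk1, Rtl1 and Dio3 are expressed from the paternal chromosome, whereas the noncoding RNAs Meg3, Rian and Mirg and an antisense transcript of Rtl1 are expressed from the maternal one. One of the largest miRNA clusters of mammals is processed from these maternal transcripts. It is best known from brain, placenta and embryo, and in mice it has also been linked to the maintenance of long-term hematopoietic stem cells. A miRNA pairs with target mRNAs mainly through its seed, bases 2 to 8 from its 5′ end.

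In the RefSeq annotation of build GRCm38.p6, the domain ran from the start of Dlk1 at 109452485 to the end of Dio3 at 110281097 on chromosome 12 and held 58 miRNA hairpins. Of the 31 miRNAs on the array, 7 had hairpins within the span of Rtl1 (miR-493-5p to miR-136-5p), 1 within that of Rian (miR-370-3p) and 7 within that of Mirg (miR-154-5p to miR-410-3p). The other 16, which include miR-494-3p, lay between Rian and Mirg with no gene of the domain over them. The hairpins spread over 163 kb from Mir493 to Mir410. Mir494 lay at 109715318-109715402 on the plus strand, 135 kb from Mir493, between Mir329 and Mir543.

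Mature sequences are from RefSeq and probe sequences from the scanner files, all 5′ to 3′. The sequences shown are those of miR-494-3p with its opposite arm and both its probes, of the undetected miRNAs whose mean spot signals differed by more than 1.96 SE between the arrays, of miR-376a-3p as a relative of miR-376b-3p, and of miR-431-5p, which had the lowest mean spot signal over both arrays. Capitals mark the seed in a mature miRNA, and probes have no capitals.
miR-494-3p: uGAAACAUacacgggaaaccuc
miR-494-5p: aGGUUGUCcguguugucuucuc
miR-494-3p, 14-base probe: gaggtttcccgtgt
miR-494-3p, 15-base probe: gaggtttcccgtgta
miR-370-3p: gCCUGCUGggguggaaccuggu
miR-376a-3p: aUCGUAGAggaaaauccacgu
miR-376b-3p: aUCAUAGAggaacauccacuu
miR-376c-3p, 21-base probe: acgtgaaatttcctctatgtt
miR-134-5p: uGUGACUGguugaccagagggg
miR-431-5p: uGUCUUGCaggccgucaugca

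Mature sequences were found for 30 of the 32 miRNAs, and these had 30 different seeds. Of these seeds, 5 occurred in other miRNAs of the array. The seed of miR-379-5p was that of miR-1193-5p, whose hairpin lies in the same domain, and of the others miR-362-3p, with the seed of miR-329-3p, was the one detected, and only at week-0. Some members are close relatives by sequence. miR-376a-3p and miR-376b-3p differed at 3 of 21 bases, of which 1 was in the seed. miR-300-3p and miR-381-3p differed at 3 of 22 bases, and miR-495-3p and miR-543-3p at 4 of 22. A probe on this array pairs with a miRNA from its 3′ end, and the probes of the cluster were 10 to 22 bases long. The 22-base probes of miR-136-5p and miR-380-3p covered the whole miRNA, seed included. The probes of miR-494-3p covered bases 9 to 22 and bases 8 to 22, hence little or none of the seed.

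Of the whole array, 193 miRNAs were detected at week-3 and 178 at week-0 by the flag of the scanner software (10.3% and 9.46% of 1881). The 6 miRNAs taken as markers of stem and progenitor cells were detected on both arrays, with a summed signal of 408 at week-3 and 1455 at week-0. So were the 3 miRNAs taken as markers of blood cells, with 1926 and 2236, but these went different ways. miR-142a-3p (715 and 1229) and miR-142a-5p (89.8 and 187) were lower at week-3, and miR-223-3p (1121 and 820) was higher. Of 6 stromal, 3 erythroid, 3 neural and 1 lymphoid miRNAs taken as markers, none was detected at week-3. At week-0, miR-451a from the erythroid list and miR-128-3p from the neural list were detected. The paper names miR-128-3p among the miRNAs downregulated in these LSKs, and whether it marks neural cells here was not tested. Of 7 negative control probes, 977 spots at week-3 and 960 at week-0 were used. These spots, which have no target in the sample, had a mean of 4.50 ± 2.92 at week-3 and 4.83 ± 3.56 at week-0 (SD) and a 95th percentile of 9.10 and 11.2. All signals are processed signals, which are background-subtracted intensities in array units and can lie below 0.

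Of the 31 cluster miRNAs, miR-494-3p alone was detected, at week-3 as well as at week-0, against the background of 10.3% and 9.46% of all miRNAs. It was one of the brightest miRNAs of the array and was brighter at week-3, whereas the other 30 were undetected, with no probe mean above the 95th percentile of the negative control spots in either group. In RNA of pooled cells, fewer cells that express a miRNA and less of it per cell cannot be told apart.

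miR-494-3p was read by 2 probes of 15 spots each. On the 14-base probe its spots ran from 2083 over a median of 2141 to 2270 at week-3, with a mean of 2148 ± 59.1 (SD, n = 14 spots), against 601 over 647 to 688 at week-0, with a mean of 647 ± 25.8 (n = 15 spots). On the 15-base probe they ran from 870 over 950 to 1006 at week-3, with a mean of 952 ± 36.6 (n = 14 spots), against 275 over 288 to 329 at week-0, with a mean of 293 ± 14.4 (n = 15 spots). On each probe every spot of the week-3 array was brighter than every spot of the week-0 array, and all 30 spots of each array carried the scanner's flag for a signal well above background. No spot was saturated. The brighter probe stood 236 times above the 95th percentile of the negative control spots at week-3 and 57.8 times at week-0.

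**Figure D1:**
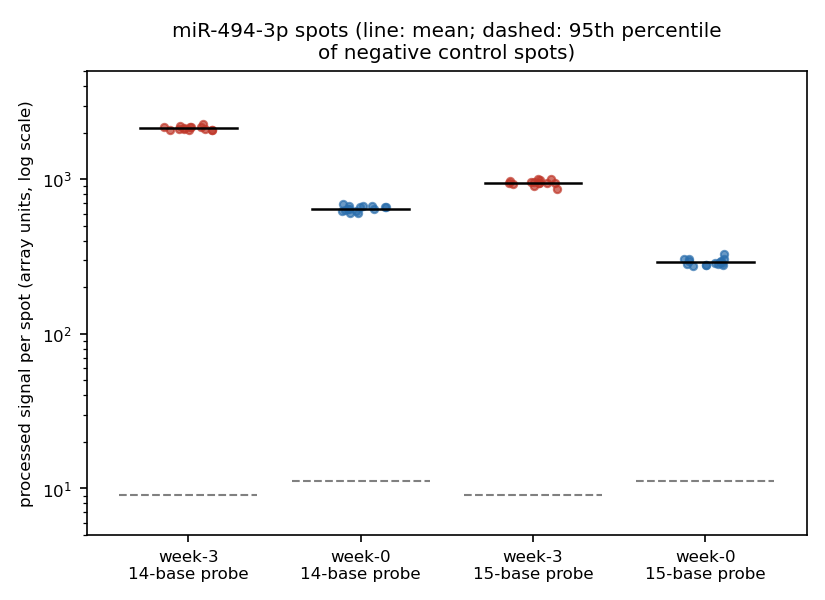
Processed signal of each miR-494-3p spot on a log axis, for the 14-base and the 15-base probe at week-3 (red) and week-0 (blue). Black lines are means over spots and dashed lines the 95th percentile of the negative control spots; the week-3 means of 2148 and 952 lie above the week-0 means of 647 and 293.

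Both probes gave nearly the same ratio of week-3 to week-0, 3.32 on the 14-base probe and 3.25 on the 15-base probe. Summed over the probes, the signal was 3101 (SE 18.6 over spots) at week-3 and 940 (SE 7.63) at week-0, a ratio of 3.30 before any scaling. After quantile normalization, which gives both arrays the same distribution of values, the log2 signal was 11.36 at week-3 and 9.73 at week-0, and the log2 difference was 1.63 (SE 0.01 over spots), or 3.09-fold higher at week-3; this SE does not cover the error of the scaling. Of 213 miRNAs detected on at least 1 array, 25.8% were at least 1.5-fold higher at week-3 and 28.6% were at most 0.67 of their week-0 value, so that a difference past 1.5-fold was common on these arrays. Among the 158 miRNAs detected on both arrays, the median log2 difference was -0.18 without scaling and -0.04 after it, and miR-494-3p lay 1.90 and 1.67 above this median. Its difference ranked 5 of 158 without scaling, after miR-712-5p, miR-714, miR-7042-5p and miR-8117, and 6 of 158 after quantile normalization. Its signal ranked 3 of 1881 at week-3 and 14 at week-0, and it made up 5.02% of the summed signal of the detected miRNAs at week-3 and 1.58% at week-0.

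Against the miRNAs nearest in brightness, miR-494-3p had the higher ratio. The 10 miRNAs nearest to it in week-0 signal (738 to 1170) had unscaled ratios of week-3 to week-0 between 0.446 and 2.02, with a median of 0.592, against 3.30 for miR-494-3p. miR-1224-5p had the highest of these ratios, with a summed signal of 1538 at week-3 and 762 at week-0, followed by the granulocyte miRNA miR-223-3p with 1121 and 820. 7 of the 10 were lower at week-3, among them let-7c-5p with 369 at week-3 and 828 at week-0 and miR-29a-3p with 482 and 1051. The summed signal of the stem and progenitor markers was lower at week-3 on the same arrays, as given above, and its part in the difference of miR-494-3p was not tested. The 10 positive control probes with signals above 50 on both arrays did not move together. Their ratios of week-3 to week-0 ran from 0.772 (dmr_31a) to 1.69 (mr_1), with 4 above and 6 below 1. Those of the 4 dmr spike-in controls with signals above 100 on both arrays ran from 0.772 to 0.959. Scaling to mr_1 alone gave miR-494-3p a ratio of 1.95.

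**Figure D2:**
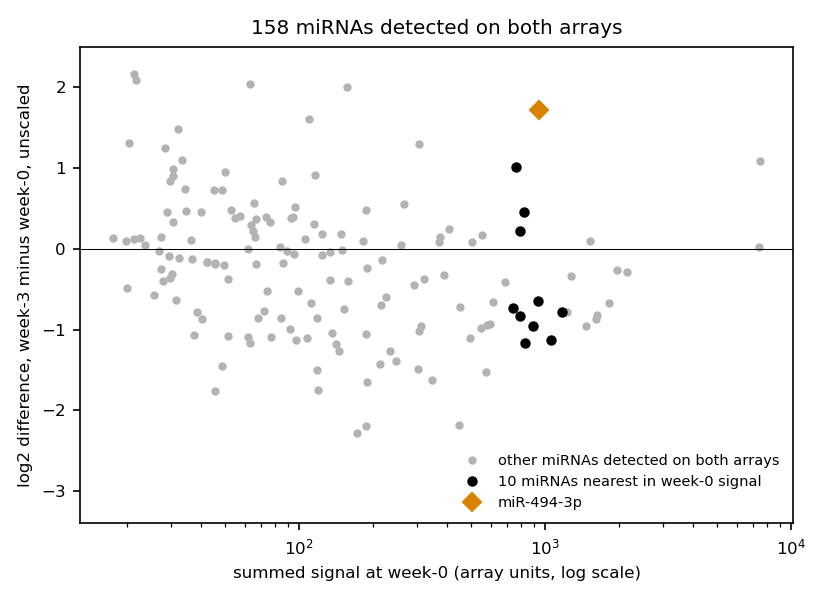
Log2 difference in unscaled signal, week-3 minus week-0, against the summed week-0 signal on a log axis, for the 158 miRNAs detected on both arrays. miR-494-3p (orange diamond) lies at 1.72, above the 10 miRNAs nearest to it in week-0 signal (black), and the 4 higher differences are those of dimmer miRNAs.

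The order of the miR-494-3p probes was unusual for this array. Its shorter probe was 2.26 times as bright as the longer one at week-3 and 2.21 times at week-0. Among 144 miRNAs detected on both arrays with a pair of nested probes that differ by 1 base, the shorter was the brighter in 14 at week-3 (9.72%) and in 17 at week-0 (11.8%), and the median ratio of shorter to longer was 0.507 and 0.501. In 2 of the 144 on each array this ratio was higher than in miR-494-3p. The target of the 15-base probe shared at most 9 bases in a row with any other of 1678 mature miRNAs in the table. That miRNA, miR-6959-5p, was undetected, with mean spot signals of -4.42 at week-3 and -6.23 at week-0. The search covered only unbroken runs in mature miRNAs. Pairing of the probes with mismatches, or with RNAs other than miRNAs, was not tested.

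Its opposite arm, miR-494-5p, which is cut from the same hairpin, was undetected on both arrays. The mean spot signal was 0.848 ± 3.12 at week-3 (SD, n = 30 spots) and -0.456 ± 3.43 at week-0 (n = 29 spots), below the mean of the negative controls on each array. The neighbouring members on either side were also undetected. miR-329-3p, 1.84 kb upstream by hairpin start, had 4.23 ± 2.73 at week-3 (n = 29 spots) and 5.52 ± 3.98 at week-0 (n = 30 spots), and miR-543-3p, 1.94 kb downstream, had 1.33 ± 3.70 (n = 30 spots) and 0.631 ± 2.34 (n = 29 spots).

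The 30 cluster miRNAs other than miR-494-3p were undetected on both arrays. For none of them did the brightest probe exceed the 95th percentile of the negative control spots, which 11.1% of all miRNAs did at week-3 and 10.6% at week-0. Among the 1668 miRNAs undetected on both arrays, only 11 did at week-3 and 9 at week-0. Their mean spot signals ran from -4.19 to 6.36 with a median of 0.737 at week-3, and from -4.44 to 8.10 with a median of 0.328 at week-0. Summed over probes, their median signal was 1.45 at week-3 and 0.720 at week-0; at the floor of 0.5 before the log lay 13 of the 30 at week-3 and 15 at week-0, so no median log2 difference is read. Below 0 lay 12 of the 30 at week-3 and 14 at week-0, and above the mean of the negative controls lay 2 in each group. Of the 1668 undetected miRNAs, 1102 at week-3 and 1098 at week-0 lay below 0, and 68 and 87 above that mean. At the floor lay 1140 and 1139 of the 1668, so these low values were not particular to the cluster. Over the 1668 miRNAs undetected on both arrays the median was -1.27 at week-3 and -1.35 at week-0. Of 884 spots of the 30 miRNAs at week-3, 13 were above the 95th percentile of the negative control spots (1.47%), and of 875 at week-0 it was 11 (1.26%), against 1.24% and 1.02% of the spots of all undetected miRNAs. These spots were not spread evenly. At week-3, 4 of the 13 were of miR-370-3p and 3 of miR-376c-3p, and at week-0, 7 of the 11 were of miR-376b-3p. Levels this low give no fold change, since many signals are below 0. By the scanner flag and the 95th percentile of single control spots these miRNAs were not detected, which does not show that they were absent. That percentile is of single spots, whereas the miRNA values are means over spots. Means of the 7 negative control probes ran from 3.66 to 6.08 at week-3 and from 3.98 to 6.58 at week-0. Above these ranges lay probes of miR-370-3p (7.29) and miR-376c-3p (6.49 and 7.47) at week-3. At week-0 both probes of miR-376b-3p did (7.09 and 9.05).

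**Figure D3:**
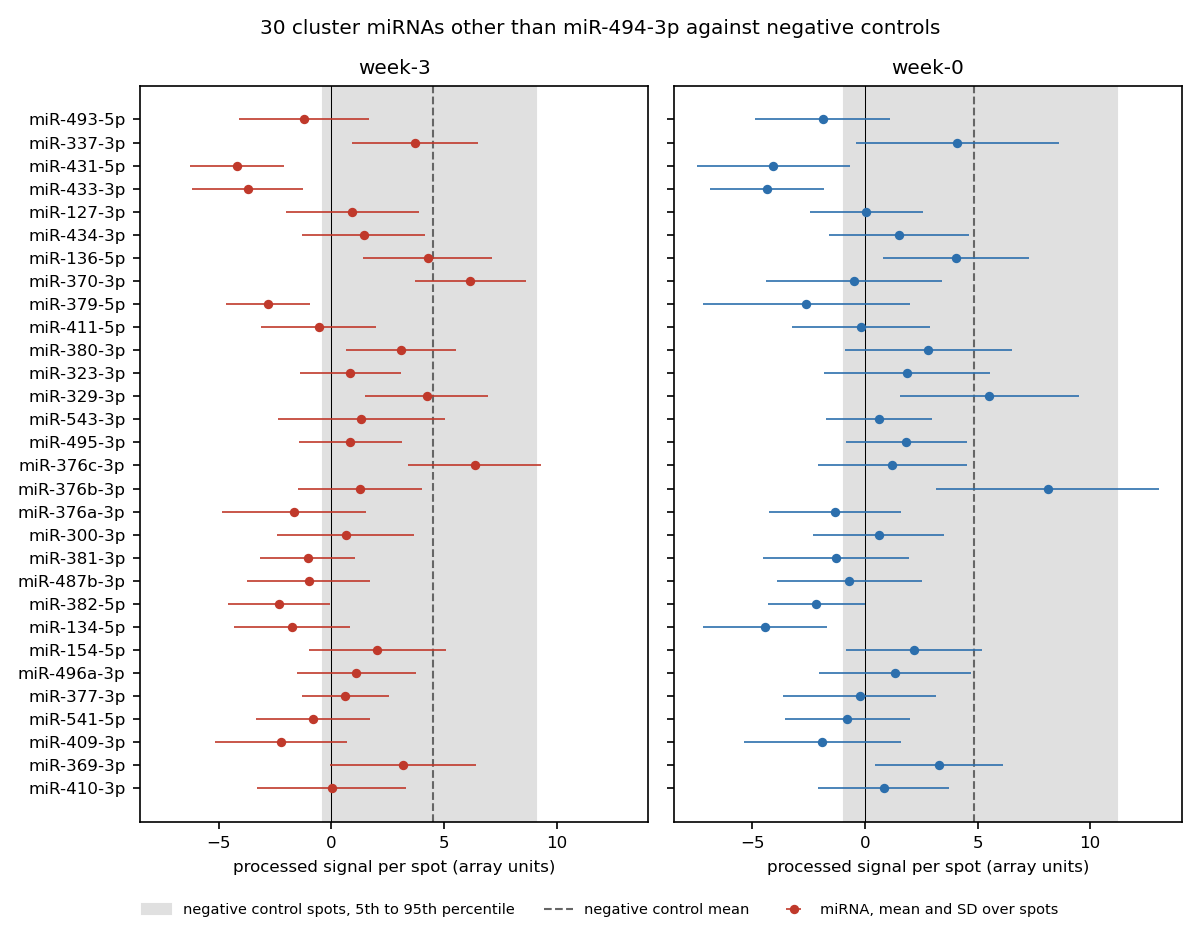
Processed signal of the 30 cluster miRNAs other than miR-494-3p at week-3 (left) and week-0 (right), as mean and SD over spots, in their order along the domain. The grey band is the 5th to 95th percentile of the negative control spots and the dashed line their mean (4.50 and 4.83); no mean lies above the band.

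Highest by the mean of both arrays were miR-329-3p, miR-376b-3p, miR-136-5p, miR-337-3p and miR-376c-3p. miR-136-5p, encoded antisense to Rtl1, had 4.28 ± 2.85 at week-3 and 4.02 ± 3.24 at week-0 (SD, n = 28 spots each), and miR-337-3p had 3.71 ± 2.81 and 4.11 ± 4.52 (n = 30 spots each). The signals of miR-136-5p and miR-337-3p lay below the mean of the negative controls on both arrays. Above that mean lay miR-329-3p (5.52) and miR-376b-3p (8.10) at week-0 and miR-376c-3p (6.36) at week-3. Lowest were miR-431-5p, miR-433-3p, miR-134-5p, miR-379-5p and miR-382-5p. miR-431-5p, like miR-433-3p antisense to Rtl1, had -4.19 ± 2.08 at week-3 (n = 29 spots) and -4.07 ± 3.40 at week-0 (n = 30 spots). miR-433-3p had -3.71 ± 2.48 (n = 30 spots) and -4.35 ± 2.54 (n = 29 spots). miR-379-5p, the first miRNA of the group downstream of Rian, had -2.81 ± 1.87 (n = 29 spots) and -2.60 ± 4.59 (n = 30 spots), and miR-382-5p had -2.31 ± 2.26 (n = 30 spots) and -2.16 ± 2.15 (n = 28 spots).

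By position in the domain, the medians lay close together and the spread within a group was wider. The 7 miRNAs within Rtl1 had a median mean spot signal of 0.932 at week-3 and 0.054 at week-0, the 7 within Mirg 0.619 and 0.830, and the 15 between Rian and Mirg 0.641 and 0.602. Within Rtl1 alone the signals spanned -4.19 to 4.28 at week-3 and -4.35 to 4.11 at week-0. miR-127-3p, which lies antisense to Rtl1 and directs cleavage of its mRNA, had 0.932 ± 2.95 and 0.054 ± 2.51 (n = 29 spots each), and miR-410-3p, at the far end of the cluster, had 0.024 ± 3.31 (n = 30 spots) and 0.830 ± 2.90 (n = 29 spots).

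The signals of the undetected miRNAs moved with the length of the probe. Over the 63 probes of the 30 miRNAs, Pearson's r between probe length and mean spot signal was 0.61 at week-3 and 0.75 at week-0, and between GC content and signal it was -0.53 and -0.65. These are descriptions across probes of single arrays, in which nested probes share a target and length and GC content go together. The 14 probes of 10 to 15 bases had a median of -1.99 at week-3 and -3.17 at week-0, the 27 of 16 to 18 bases -0.27 and -0.36, and the 22 of 19 to 22 bases 2.93 and 2.66. Over 3893 probes of the other undetected miRNAs, r with length was 0.48 at week-3 and 0.47 at week-0. The mean spot signals of the 30 miRNAs at week-3 and at week-0 were correlated with Pearson's r of 0.71 and Spearman's rho of 0.85, over signals that share their probes.

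**Figure D4:**
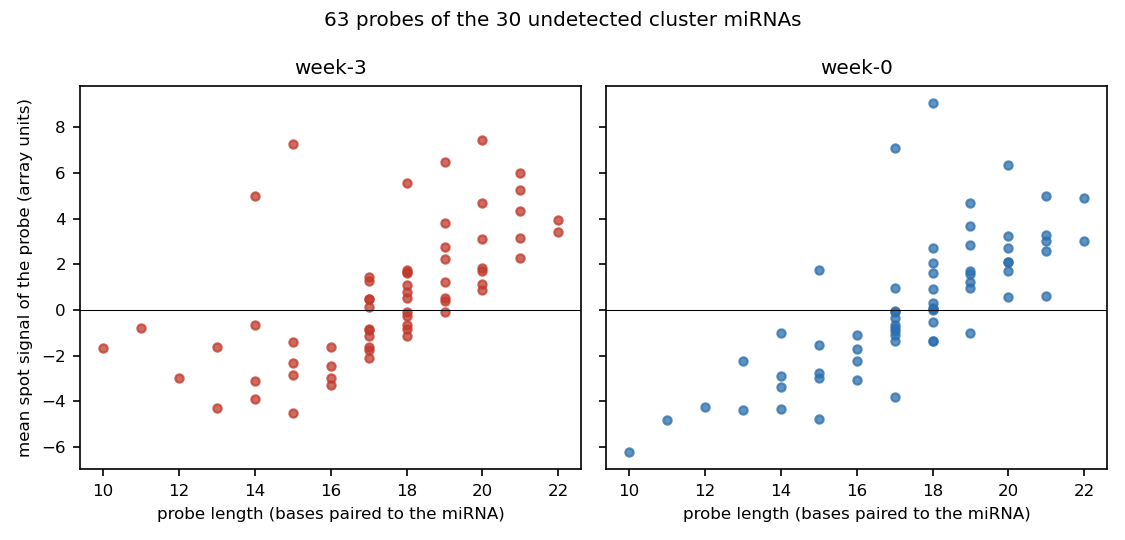
Mean spot signal of the 63 probes of the 30 undetected cluster miRNAs against probe length in bases, at week-3 (left) and week-0 (right). Longer probes have higher signals, with medians of 2.93 and 2.66 for 19 to 22 bases; the 2 probes of miR-370-3p (14 and 15 bases) lie above the others of their length at week-3 and the 2 of miR-376b-3p (17 and 18 bases) at week-0.

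Between the arrays, 26 of the 30 undetected miRNAs differed by less than 1.96 SE over spots. 3 were higher at week-3 by more than that and 1 was lower, against 9.29% and 6.83% of the 1668 undetected miRNAs, so that these counts were near the background shares. The median difference of the 30 in mean spot signal was -0.12, against 0.04 over all undetected miRNAs. The 4 miRNAs beyond 1.96 SE were miR-370-3p, miR-376c-3p and miR-134-5p, which were higher, and miR-376b-3p, which was lower. They were named after their values had been seen, and spots within an array are not independent samples.

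miR-370-3p, the single member within Rian, had a mean spot signal of 6.18 ± 2.45 at week-3 and -0.475 ± 3.90 at week-0 (SD, n = 29 spots each), a difference of 6.65 (SE 0.85). Its 14-base probe gave 4.99 at week-3 and -2.87 at week-0, and its 15-base probe 7.29 and 1.76. Both probes were thus brighter on the week-3 array, and no other undetected miRNA had as high a difference (1 of 1668, 0.06%). Of its 29 spots at week-3, 4 exceeded the 95th percentile of the negative controls, against 1.24% of the spots of all undetected miRNAs. At week-0, 0 did, and miR-370-3p was undetected on both arrays.

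miR-376c-3p had 6.36 ± 2.95 at week-3 (n = 30 spots) and 1.22 ± 3.31 at week-0 (n = 29 spots), a difference of 5.13 (SE 0.82), which 6 of the 1668 undetected miRNAs reached (0.36%, itself included). Its 4 probes gave 5.56 to 7.47 at week-3 and -1.36 to 3.67 at week-0. On each of the 4 probes the week-3 mean was the higher. Of its spots, 3 of 30 at week-3 and 0 of 29 at week-0 exceeded the 95th percentile of the negative controls.

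miR-376b-3p went the other way, with 1.27 ± 2.74 at week-3 (n = 30 spots) and 8.10 ± 4.94 at week-0 (n = 29 spots), a difference of -6.83 (SE 1.05). This was the lowest difference among the 1668 (0.06%). Its 17-base probe gave 1.45 at week-3 and 7.09 at week-0 and its 18-base probe 1.09 and 9.05. Of its spots, 0 of 30 at week-3 and 7 of 29 at week-0 exceeded the 95th percentile of the negative controls. Among the spots of all undetected miRNAs, 1.24% and 1.02% did. miR-376a-3p, which differs from it at 3 bases, had -1.64 ± 3.20 at week-3 and -1.32 ± 2.94 at week-0 (n = 30 spots each). The miR-376 relatives, whose hairpins lie within 1.06 kb of each other by start, therefore showed a higher, a lower and a like signal at week-3, all of them undetected. miR-134-5p, known in neurons as a repressor of Limk1, had -1.75 ± 2.56 at week-3 and -4.44 ± 2.77 at week-0 (n = 29 spots each), a difference of 2.69 (SE 0.70) between values below 0.

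**Figure D5:**
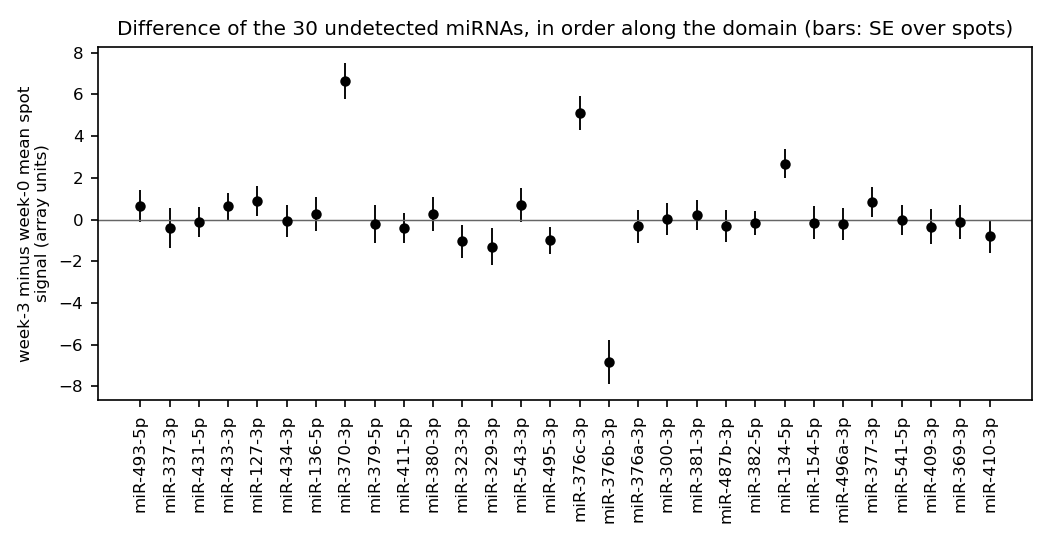
Difference in mean spot signal, week-3 minus week-0, of the 30 undetected cluster miRNAs in their order along the domain, with bars of 1 SE over spots. miR-370-3p (6.65), miR-376c-3p (5.13) and miR-134-5p (2.69) lie above the others and miR-376b-3p (-6.83) below them.

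Of the remaining miRNAs of the domain, the array held 83, 31 from the hairpins of the cluster miRNAs and 52 from other hairpins. Of the 83, 2 were detected at week-3 and 1 at week-0, against 10.3% and 9.46% of all miRNAs. miR-3072-5p, within Mirg, had a mean spot signal of 43.3 ± 25.9 at week-3 and 33.4 ± 20.4 at week-0 (SD over both probes, n = 30 spots each) and was detected in both groups. miR-1906, within Meg3, had 12.7 ± 4.83 at week-3, where it was detected, and 6.17 ± 4.09 at week-0, where it was not (n = 29 spots each). A copy of miR-1906 lies on chromosome X, and the array cannot tell these copies apart. The median of the 83 was -1.57 at week-3 and -1.77 at week-0, and 57 and 56 of them lay below 0. Of all 1881 miRNAs, 1102 at week-3 and 1099 at week-0 lay below 0.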

How the data were processed

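Cy3-labelled RNA was hybridised to Agilent mouse miRNA arrays, both on 1 slide. The deposited intensity values came from Feature Extraction 10.7.1.1, as the file headers state. The authors also deposited log2 normalized signals, quantile normalized with AgiMicroRna per the methods, with detection flags. The flags equalled those of the scanner for 1881 of 1881 miRNAs on each array.

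Outlier spots were left out (18 of 930 cluster spots at week-3, 25 of 930 at week-0), spots averaged per probe, probes summed per miRNA, and sums quantile normalized over 1881 miRNAs, floored at 0.5 and log2 transformed (Python 3.11.15, numpy 2.4.6, pandas 2.3.3; R 4.3.3 with limma 3.58.1 for the RMA-like alternative). The summary without scaling recovered changes put into simulated data after the known difference in overall signal between the simulated arrays was taken out. The simulated spots were drawn around the true signal, so this checked the calculation and not the arrays. For the real arrays the difference in overall signal is unknown, so the accuracy of unscaled ratios was not tested. Quantile scaling did not meet a first requirement on the size of the changes, which was then replaced by one on direction. It recovered the direction, but the size was off for some bright miRNAs, miR-494-3p among them. Unscaled ratios are therefore given beside the quantile normalized values. The design assumed 32 miRNAs; 31 were on the array.

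The miRNAs, marker lists and rules were chosen with earlier results of these data known. Named were miR-494-3p, detected miRNAs of the domain, the 5 highest and 5 lowest members by mean spot signal, similar sequences and the 10 miRNAs nearest miR-494-3p in week-0 signal. With 1 array per group there is no test; SEs cover spots within arrays, and the number of arrays limits precision.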

Additional observations from a re-analysis of the deposited data

How the results depend on the processing

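The log2 difference of miR-494-3p was positive under all 12 alternatives, from 0.96 to 2.08. It was 1.72 without normalization, 1.78 with scaling to the 75th percentile of all miRNAs, 1.99 with that of the miRNAs detected on both arrays, 1.75 with the RMA-like summary, 1.78 with the brightest probe alone and 1.87 in the authors' table. With scaling to controls, chosen after seeing the data, it was 2.08 (dmr_285 and dmr_31a), 1.61 (10 positive control probes) and 0.96 (mr_1). The counts of detected cluster miRNAs (1 in each group) and of the 30 others above the negative control spots (0 in each group) were equal in each alternative run. Their median summed signal at week-0 was 0.105 with outlier spots kept, 0.454 with medians of spots and 1.44 with the brightest probe alone, against 0.720; the SE over the 30 was 1.17. The differences of miR-370-3p, miR-376c-3p, miR-134-5p and miR-376b-3p kept their sign with medians of spots, with outlier spots kept and with means of probe means, alternatives also chosen after seeing the data. No paired analysis was possible because each group was 1 array, and for the same reason no array could be left out.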
